A study of Mus musculus with 18 samples.

Results

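Transcripts of 4 peptide hormones that are made mainly outside the hippocampus were followed library by library: Gh (growth hormone), Avp (arginine vasopressin), Hcrt (hypocretin, also called orexin) and Pmch (pro-melanin-concentrating hormone). These 4 genes, of 15329 listed, were chosen from the values described here, as possible signs of neighbouring tissue. Single libraries stood far above the others for Gh, Hcrt and Pmch, and less so for Avp. Because the same values chose the genes, their levels are given as a description and were not tested. RNA was sequenced from the hippocampus of C57BL/6J mice of 8 to 10 weeks, 1 library per mouse, in 18 libraries that form 6 groups of 3. WT mice and mice with a knockout (KO) of Ccny, the cyclin Y gene, were untrained (WT_Basal and KO_Basal), given original learning in a Morris water maze task (groups WT_OL and KO_OL), or given original learning and then reversal learning, with the hidden platform moved (groups WT_RL and KO_RL). All 3 KO groups are labelled with the same Ccny knockout, and how the allele was made is not given in the sources used here. The values are TMM-normalized counts scaled to a common library size as CPM, and the reads behind each value could be recovered.

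Growth hormone is secreted by somatotrophs of the anterior pituitary, next to lactotrophs that secrete prolactin and corticotrophs that process proopiomelanocortin. Vasopressin and its neighbour gene product oxytocin are made in magnocellular neurons of the paraventricular and supraoptic nuclei of the hypothalamus. Hypocretin and melanin-concentrating hormone are made by separate but intermingled neurons of the lateral hypothalamus, whose axons reach the hippocampus, and hippocampal neurons carry receptors for these peptides. In whole tissue, the number of expressing cells and the RNA per cell cannot be told apart.

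The positions in GRCm38, the build named mm10 in the labels, place the genes on 3 chromosomes. Gh lies at chr11:106300271-106301865 on the minus strand, with 5 exons. Hcrt lies on the same chromosome at chr11:100761069-100762931, also on the minus strand, and Avp at chr2:130580620-130582554 on the minus strand. Oxt, the oxytocin gene, lies beside Avp on the plus strand, and 3565 bases separate the 3′ ends of both genes. Pmch lies at chr10:88091072-88092375 on the plus strand, and 435 bases of its exons overlap exons of Parpbp on the minus strand. Whether reads were counted by strand is not given in the sources used here, so reads in the overlap could belong to either gene. Parpbp, which binds the DNA repair enzyme PARP1, had 0.922 CPM in the library where Pmch reached 52.6 CPM, and between 0.326 and 0.893 CPM in the other 17.

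The bases just before the start sites of Hcrt and Pmch are shown because these 2 genes were high in the same library. Each window holds the 100 bases upstream of the gene start in RefSeq on GRCm38.p6, 5′ to 3′ on the strand of the gene, and capitals mark the letters TATAAA, the core of a TATA box.
Hcrt, chr11:100762932-100763031, minus strand: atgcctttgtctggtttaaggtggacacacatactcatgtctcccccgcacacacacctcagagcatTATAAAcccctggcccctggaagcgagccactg
Pmch, chr10:88090972-88091071, plus strand: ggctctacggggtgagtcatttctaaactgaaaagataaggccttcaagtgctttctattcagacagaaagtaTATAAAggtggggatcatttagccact
The motif starts 33 bases before the gene start in Hcrt and 27 bases before it in Pmch. On the gene strand, 3.80% of 32851 windows of the same length hold these letters. The Avp window does not hold them, and Gh has no entry in the promoter table used. A match is a description of the letters and not a measured start site.

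The libraries held 29248557 to 37915576 reads on genes of the table, so 1 read was worth 0.0274 to 0.0333 CPM and a count of 0 allowed a level of up to 0.0823 to 0.0999 CPM (3 reads, counting error only). Ccny was at 107 to 158 CPM in the 9 WT libraries and at 74.0 to 95.8 CPM in the 9 KO libraries, without overlap. A list of 13 marker genes of dentate granule and pyramidal neurons summed to 754 to 1315 CPM in the 18 libraries, with the lowest sum in WT_OL replicate 2, the library that also held the highest value of 17.7% of all genes. Marker sums differed more for neighbouring structures: 15 choroid plexus genes, all listed, summed to 217 to 12915 CPM and 8 striatal genes to 107 to 770 CPM.

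Gh was present in the untrained mice and at or near 0 in most trained mice. Its level was 0.0666, 32.3 and 7.32 CPM in WT_Basal replicates 1 to 3 and 2.26, 1.55 and 0.716 CPM in KO_Basal replicates 1 to 3. Among the 12 trained libraries it was 1.37 CPM in KO_OL replicate 3 and 0.226 CPM in WT_RL replicate 2, and 0 reads fell on it in the other 10. Thus all 6 untrained libraries and 2 trained libraries held Gh reads, and the lowest untrained library, with 2 reads, lay below both of those trained libraries. By the study's mapping statistics, every trained library except WT_OL replicate 2 had a higher mapping rate than every untrained library. The part of this difference in the Gh levels was not tested. The levels of Gh in the untrained mice were also far apart from each other. WT_Basal replicate 2 held 969 of its 1400 reads and 70.5% of its summed CPM, 4.41 times the next library.

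The group means of Gh were 13.2 ± 16.9 CPM in WT_Basal, 1.51 ± 0.772 CPM in KO_Basal, 0.458 ± 0.793 CPM in KO_OL and 0.0754 ± 0.131 CPM in WT_RL (SD, n = 3 mice each), with WT_OL and KO_RL at 0 in every mouse. Neighbours in this order differed by less than the larger of their SDs, except KO_Basal and KO_OL, whose mice still overlapped. Without WT_Basal replicate 2, the mean of Gh in WT_Basal was 3.69 CPM over 2 mice, still above the KO_Basal mean. Its 3 WT_Basal values enclosed all 3 KO_Basal values.

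**Figure D1:**
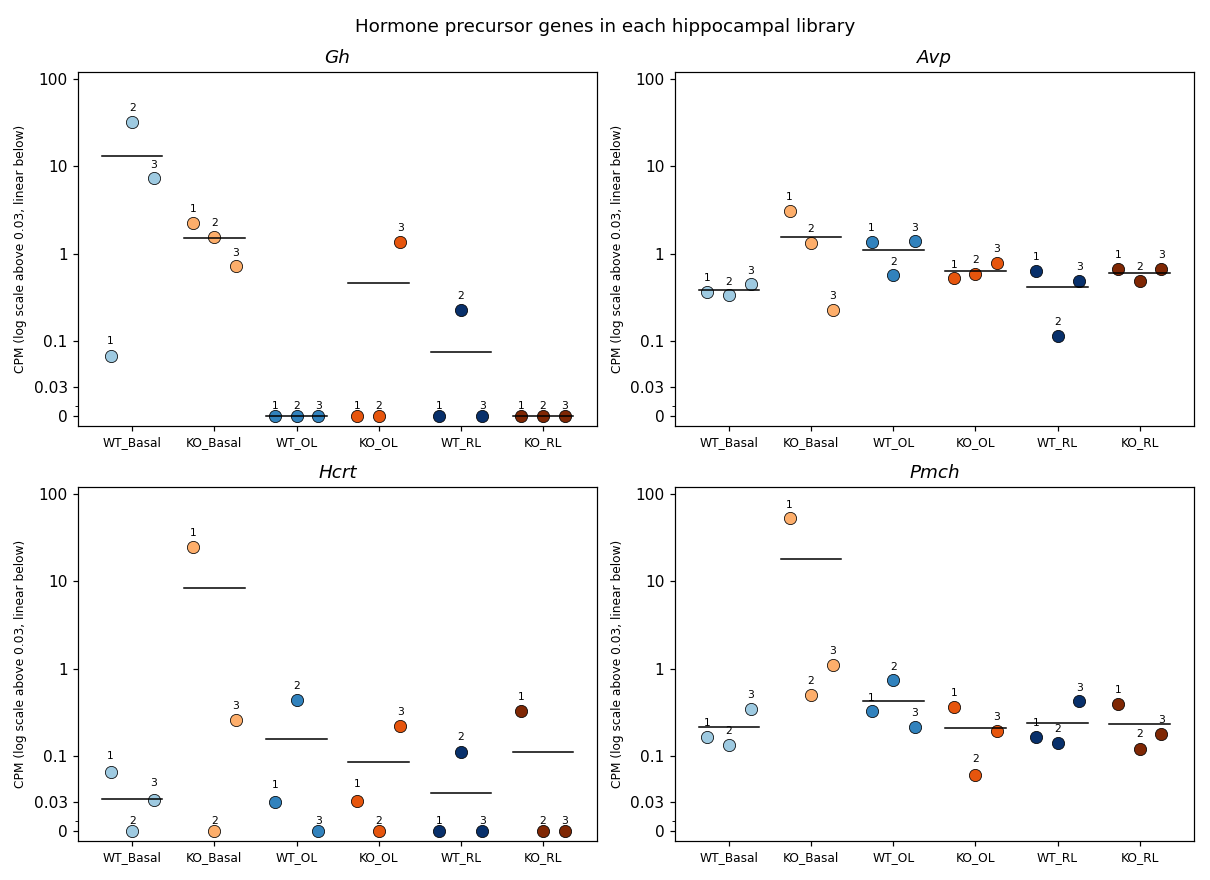
Levels of Gh, Avp, Hcrt and Pmch in the 18 libraries. The vertical axis is CPM on a log scale above 0.03 and linear below, each point is 1 mouse with its replicate number, and the horizontal line is the mean of the 3 mice. Gh peaks in WT_Basal replicate 2 at 32.3 CPM, and Hcrt and Pmch peak in KO_Basal replicate 1 at 25.0 and 52.6 CPM.

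In most libraries Pmch was low (median 0.271 CPM) and Hcrt was near the detection limit (median 0.0302 CPM). Both were high in 1 library, KO_Basal replicate 1. The level of Pmch was 52.6, 0.506 and 1.11 CPM in KO_Basal replicates 1 to 3, against 0.166, 0.133 and 0.350 CPM in WT_Basal. After original learning, Pmch was at 0.326, 0.742 and 0.216 CPM in WT_OL and at 0.368, 0.0618 and 0.196 CPM in KO_OL. After reversal learning it was at 0.165, 0.141 and 0.424 CPM in WT_RL and at 0.394, 0.122 and 0.181 CPM in KO_RL. Reads of Pmch were thus found in every library, and KO_Basal replicate 1 held 1655 of 1837, or 90.4% of the summed CPM. That library was 47.6 times the second, KO_Basal replicate 3. Within KO_Basal replicate 1, Pmch ranked 4482 of 15329 genes by CPM, above 70.8% of them.

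Hcrt was at 25.0, 0 and 0.260 CPM in KO_Basal replicates 1 to 3 and at 0.0666, 0 and 0.0318 CPM in WT_Basal. In the trained mice its level was 0.0297, 0.445 and 0 CPM in WT_OL, 0.0307, 0 and 0.224 CPM in KO_OL, 0, 0.113 and 0 CPM in WT_RL, and 0.334, 0 and 0 CPM in KO_RL. Reads were found in 10 of 18 libraries, and KO_Basal replicate 1 held 786 of 837 reads. The ratio of that library to the second, WT_OL replicate 2, was 56.2. The other KO_Basal mice lay within the range of the other groups.

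Group means of both genes rest on that mouse. Pmch averaged 18.1 ± 29.9 CPM in KO_Basal (SD, n = 3), and 0.806 CPM without replicate 1, while the other 5 groups had means of 0.209 to 0.428 CPM. Hcrt averaged 8.42 ± 14.4 CPM in KO_Basal, and 0.130 CPM without replicate 1, between the WT_OL mean of 0.158 CPM and the KO_RL mean of 0.111 CPM. All neighbours in the order of the group means of Hcrt and of Pmch differed by less than the larger of their SDs.

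Avp had the flattest profile of the 4 genes. Its level was 0.366, 0.333 and 0.446 CPM in WT_Basal and 3.08, 1.33 and 0.228 CPM in KO_Basal. The OL groups had 1.36, 0.564 and 1.39 CPM in WT_OL and 0.521, 0.587 and 0.785 CPM in KO_OL. The RL groups had 0.631, 0.113 and 0.484 CPM in WT_RL and 0.667, 0.489 and 0.664 CPM in KO_RL. Every library held Avp reads, from 4 to 97, and KO_Basal replicate 1 was again the highest, 2.23 times WT_OL replicate 3. It held 22.0% of the summed Avp CPM, a smaller share than the highest libraries of Gh, Hcrt and Pmch held.

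The group means of Avp were 1.55 ± 1.44 CPM in KO_Basal, 1.10 ± 0.469 CPM in WT_OL, 0.631 ± 0.137 CPM in KO_OL, 0.607 ± 0.102 CPM in KO_RL, 0.410 ± 0.267 CPM in WT_RL and 0.382 ± 0.0579 CPM in WT_Basal (SD, n = 3 mice each). Neighbours in this order differed by less than the larger of their SDs, except WT_OL and KO_OL, whose mice overlapped. Without replicate 1 the KO_Basal mean of Avp was 0.779 CPM. In that case WT_OL, at 1.10 CPM, became the group with the highest mean. To compare the genes with each other, CPM was divided by exon length: the highest library reached 70.2 CPM per kilobase for Pmch, 37.4 for Gh, 33.4 for Hcrt and 5.34 for Avp, while the medians over libraries were 0.362, 0, 0.0403 and 0.997 CPM per kilobase. Avp therefore had the highest median level per length and the lowest peak.

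By Pearson's r, the pattern of Gh over libraries was most like that of Prl, the prolactin gene (r = 0.98, Spearman's rho = 0.80 over 18 log2 values). By rho Lyrm7 ranked first (0.86), and Prl was not among the first 5. Prl stood at 3.53 CPM in WT_Basal replicate 2 and 0.987 CPM in WT_Basal replicate 3, the same order as Gh, and at 0.540 CPM or less elsewhere. Without the highest library r was 0.97, and without both WT_Basal replicates 2 and 3 it was 0.94, and Prl kept the highest r in both cases. Pomc, the proopiomelanocortin gene, was also among the 5 genes most like Gh, with r = 0.78. It had 7.63 CPM in WT_Basal replicate 2 and 0.466 to 2.30 CPM elsewhere, and its r fell to 0.36 without that library.

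The ratio of Prl to Gh reads was compared in the libraries that held many. Prl made up 9.86% of the reads of both genes in WT_Basal replicate 2 (95% exact binomial interval 8.14 to 11.8%), 11.9% in WT_Basal replicate 3 (8.21 to 16.4%) and 19.3% in KO_Basal replicate 1 (11.7 to 29.1%). In KO_OL replicate 3, the trained library with the most Gh reads, the share was 27.9% (17.7 to 40.1%), whose interval lies above that of WT_Basal replicate 2. The other genes in the 5 most like Gh were Rars2 (r = 0.79), which encodes the mitochondrial arginyl-tRNA synthetase, AI115009 (r = 0.79) and Lyrm7 (r = 0.78), an assembly factor of respiratory complex III. Unlike Prl, Rars2 and Lyrm7 were abundant in every library, with medians of 17.2 and 13.2 CPM.

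By Pearson's r, Hcrt and Pmch were each other's most similar gene (r = 0.99, rho = 0.55 over 18 libraries). By rho, Rhoh ranked first for Hcrt (0.80) and Parp9 for Pmch (0.80), and neither hormone gene was among the first 5 of the other. Without KO_Basal replicate 1, r was 0.59, and Pmch then ranked 303 among the genes most like Hcrt. In KO_Basal replicate 1, Hcrt made up 32.2% of the reads of both genes (95% exact binomial interval 30.3 to 34.1%). The share was 19.0% in KO_Basal replicate 3 (8.60 to 34.1%), 37.5% in WT_OL replicate 2 (22.7 to 54.2%) and 45.8% in KO_RL replicate 1 (25.6 to 67.2%), the other libraries with more than 20 reads of both genes. These intervals overlap that of KO_Basal replicate 1. Of the libraries with fewer reads, KO_Basal replicate 2 had 0 Hcrt reads of 16 (0 to 20.6%) and WT_RL replicate 3 had 0 of 14 (0 to 23.2%). Both intervals lie below that of KO_Basal replicate 1, while those of the remaining libraries with reads overlap it. The share was thus not shown to be the same in all libraries.

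The next genes by r to Hcrt were also the next by r to Pmch: Sim1 (r = 0.97 with each), a transcription factor of hypothalamic neurons, Foxa1 (r = 0.97 and 0.96), a forkhead transcription factor, C130021I20Rik (r = 0.95 and 0.94), and Slc6a3 (r = 0.88 and 0.87), the dopamine transporter. All peaked in KO_Basal replicate 1, at 2.29 CPM for Sim1, 0.763 CPM for Foxa1, 2.23 CPM for C130021I20Rik and 1.81 CPM for Slc6a3. Without that library the r with Hcrt was -0.23 for Sim1, -0.13 for C130021I20Rik and -0.03 for Slc6a3, so these likenesses rest on 1 mouse, and the r with Pmch was below 0 for the same genes. Foxa1 kept an r of 0.53 with Hcrt and 0.34 with Pmch.

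Avp was most like Oxt, its neighbour on the chromosome, by Pearson's r (r = 0.84, rho = 0.74), and Oxt kept the highest r without KO_Basal replicate 1 (r = 0.74). By rho Gm5741 ranked first (0.74). Oxt had 1.11 CPM in KO_Basal replicate 1 and 1.10 CPM in WT_OL replicate 1, 2 of the 4 libraries in which Avp was over 1 CPM. Oxt made up 26.5% of the reads of both genes in KO_Basal replicate 1 (95% exact binomial interval 19.2 to 34.9%) and 44.6% in WT_OL replicate 1 (33.7 to 55.9%). The genes next in likeness to Avp were Hc (r = 0.76), which encodes complement component C5, Sim1 (r = 0.73), Foxa1 (r = 0.71) and Pmch (r = 0.70). With KO_Basal replicate 1 left out, the r of Sim1, Foxa1 and Pmch with Avp lay between -0.04 and 0.15. Correlations over libraries share the depth and composition of each library, and no p-value is given.

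**Figure D2:**
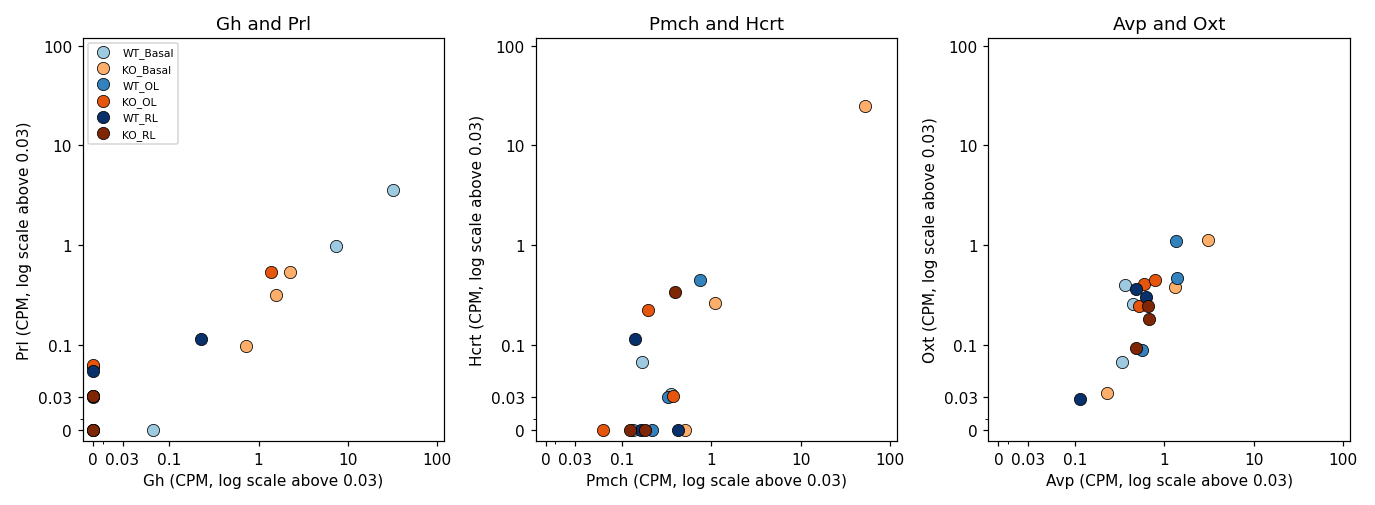
Pairs of genes in the 18 libraries, each point 1 mouse, both axes in CPM on a log scale above 0.03 and linear below. Gh and Prl rise together over the libraries with Gh reads, Pmch and Hcrt share 1 distant point (KO_Basal replicate 1, at 52.6 and 25.0 CPM), and Avp and Oxt form a single spread below 4 CPM.

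The rest of the hypothalamic and pituitary genes were followed as lists. Of 33 hypothalamic marker genes, 19 were listed in the table, and 14, among them Agrp and Ghrh, were not. KO_Basal replicate 1 held the highest value of 13 of these 19 genes (68.4%), against 7.59% of all 15329 genes. That library was picked because Hcrt and Pmch peaked in it. Some list genes may also be in the table only through it, such as Sim1, with 72 reads there and 4 or fewer in each other library. The 68.4% is therefore a description, and its distance from 7.59% is not read as a result. Of these 13 values, 5 were more than 2 times the next library, while that of Oxt was 1.01 times the next. Trh, the thyrotropin-releasing hormone gene, reached 19.5 CPM in KO_Basal replicate 1, with 10.1 CPM in WT_RL replicate 1, 6.36 CPM in KO_OL replicate 2 and 2.02 CPM or less in the other libraries. Irs4, an insulin receptor substrate, reached 8.81 CPM, against 4.11 CPM in KO_OL replicate 2. Foxb1, a forkhead factor of the mammillary region, reached 4.13 CPM, but also 2.42 and 1.41 CPM in WT_RL replicates 3 and 2, where Hcrt was at 0 and 0.113 CPM. Six3, a homeobox factor of the ventral forebrain, had its highest value of 6.90 CPM in KO_OL replicate 3 instead.

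The summed hypothalamic list was 104 CPM in KO_Basal replicate 1 and 23.7 to 56.9 CPM in the other 17 libraries. In the same library 3 of 6 monoaminergic genes (Th, Slc6a3 and Slc18a2) had their highest value, with a sum of 24.9 CPM against 11.2 to 19.9 CPM elsewhere. The choroid plexus sum was among the lowest there, 227 CPM, and the hippocampal sum was 976 CPM, lower only in WT_OL replicate 2. WT_Basal replicate 2, the library highest in Gh, was the highest for 0 of the 19 hypothalamic genes and for 3.61% of all genes. With so low a share over all genes, nothing is read from the 0. The part of tissue composition in the levels of the 4 hormones was not tested.

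Of 12 pituitary markers 4 were listed, and 8 were not, among them Cga, Tshb and Pou1f1. Prl and Pomc had their highest values in WT_Basal replicate 2, as Gh did. Dlk1, which encodes a membrane protein found in pituitary and hypothalamic cells, ranged from 4.18 to 31.8 CPM, with its highest values in KO_OL replicate 3 and KO_Basal replicate 1. Lhb, the beta subunit of luteinizing hormone, had its highest value of 1.27 CPM in WT_RL replicate 3. The libraries highest in the pituitary list were thus not the same for all its genes.

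**Figure D3:**
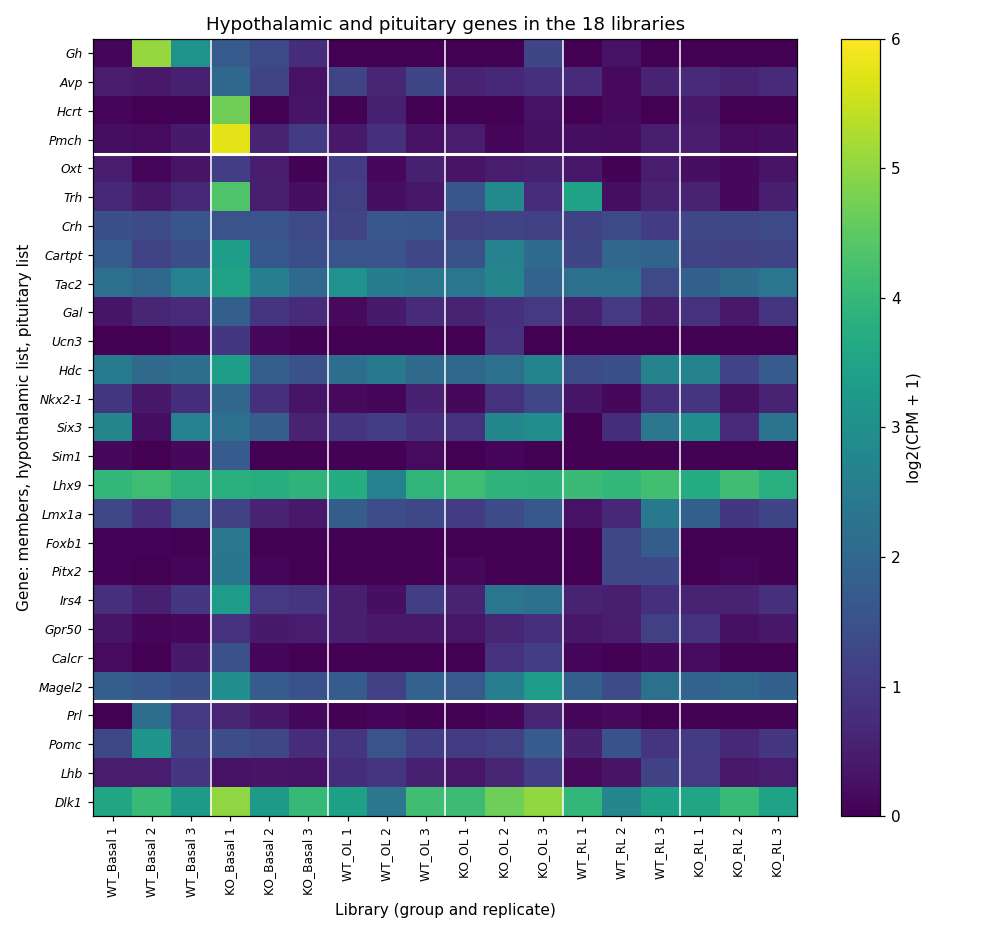
Heat map of log2(CPM + 1) for the 4 hormone genes (top), 19 hypothalamic list genes (middle) and 4 pituitary list genes (bottom), with a column for each library in 6 groups of 3. The column of KO_Basal replicate 1 is the brightest for 13 of the 19 hypothalamic genes, and Gh, Prl and Pomc are brightest in WT_Basal replicate 2.

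**Figure D4:**
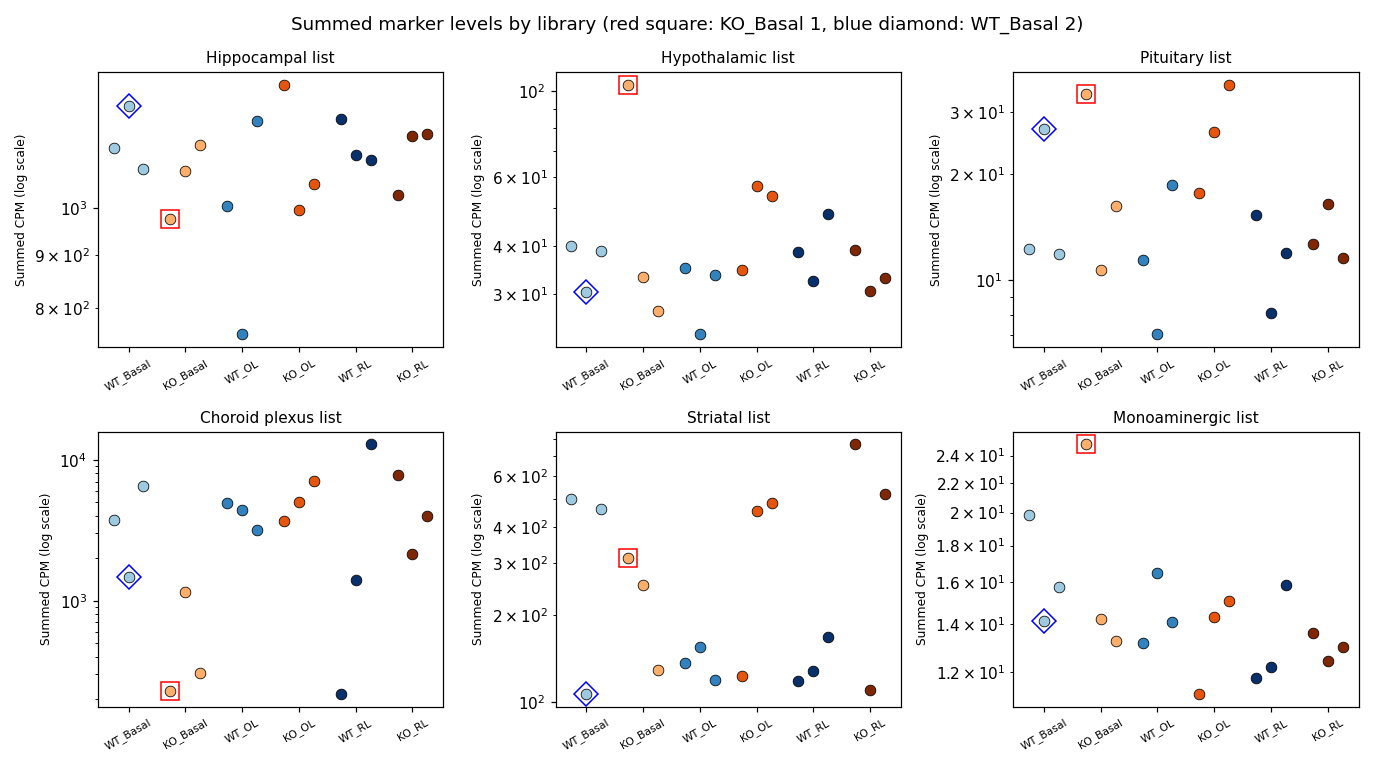
Summed CPM of 6 marker lists in each library on a log scale, 1 point per mouse, with KO_Basal replicate 1 in a red square and WT_Basal replicate 2 in a blue diamond. KO_Basal replicate 1 has the highest sums of the hypothalamic (104 CPM) and monoaminergic (24.9 CPM) lists and a low choroid plexus sum (227 CPM).

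KO_Basal was compared with WT_Basal to ask what the knockout changes without training. Differences are given on the log2(CPM + 1) scale, where changes of low genes appear smaller than they are. Pmch differed by 2.19 (SE 0.83), Hcrt by 1.63 (SE 0.76), Avp by 0.72 (SE 0.29) and Gh by -1.46 (SE 0.76). Each SE is pooled over all 6 groups, so a gene has the same SE in every comparison. Where 1 library stood far above its group, as for Pmch in KO_Basal (log2 SD 2.85), the SE understates the spread of the groups compared. The differences of the 4 genes are therefore not read against their SEs. KO_Basal and WT_Basal did not overlap for Pmch alone of the 4 genes, while 14.7% of all genes did not overlap. Since this contrast helped to choose the genes, nothing is read from the count. Without KO_Basal replicate 1 the differences were 0.55 for Pmch, 0.12 for Hcrt and 0.29 for Avp, and without WT_Basal replicate 2 that of Gh was -0.30. In limma, which adjusts over all genes by the Benjamini-Hochberg method, 0.0196% of genes were called at an adjusted p under 0.05. It called 0 of 19 hypothalamic, 0 of 4 pituitary and 0 of 16 receptor genes, with 1, 0 and 2 genes at an unadjusted p under 0.05, and voom on the recovered reads also called 0 in each list. The median difference was 0.40 over the hypothalamic list and 0.01 over all genes. KO_Basal replicate 1 held the highest value of 13 of the 19 hypothalamic genes, and the list median was not taken without it. The 0.40 is therefore not read as a shift of the list in the knockout.

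Original learning was compared with no training within each genotype. The SEs are again pooled over all groups, and that of Gh is lowered by WT_OL and KO_RL, where every mouse was at 0. In WT mice, Gh differed by -2.74 (SE 0.76) and Avp by 0.58 (SE 0.29), both without overlap between the groups, while Hcrt differed by 0.14 (SE 0.76) and Pmch by 0.22 (SE 0.83) with overlap. Non-overlap was found for 28.3% of all genes in this comparison. For Gh it rests on 2 reads in WT_Basal replicate 1, whose 0.0666 CPM lies below the 0.0890 to 0.0924 CPM that a count of 0 allows in the WT_OL libraries. Without WT_Basal replicate 2 the difference of Gh was -1.57 (in log2), and without WT_OL replicate 2 that of Hcrt was -0.02. In KO mice Pmch differed by -2.20 (SE 0.83) without overlap, Hcrt by -1.57 (SE 0.76), Gh by -0.86 (SE 0.76) and Avp by -0.48 (SE 0.29). Non-overlap was found for 48.8% of all genes there. Without KO_Basal replicate 1 the differences were -0.57 for Pmch, -0.06 for Hcrt, -0.65 for Gh and -0.06 for Avp. The comparison of the untrained groups uses the same WT_Basal and KO_Basal libraries, so these differences are not independent of it.

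In limma, 9.5% of genes were called between WT_OL and WT_Basal and 23.5% between KO_OL and KO_Basal, but no hypothalamic or pituitary list gene in either. At an unadjusted p under 0.05 there were 1 hypothalamic and 1 pituitary gene in WT mice and 1 and 0 in KO mice, and voom called 0 in each. The list medians were -0.02 (hypothalamic) and -0.48 (pituitary) in WT mice and -0.07 and 0.27 in KO mice, against medians of -0.00025 and -0.0073 over all genes. The pituitary medians cover 4 genes, of which Prl and Pomc were highest in WT_Basal replicate 2. The pituitary median in WT mice was not taken without that library, so it is not read as a fall after learning.

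Of 17 receptors and signalling genes of these hormones, 16 were listed. Mchr1, the receptor of melanin-concentrating hormone, was at 14.9 to 23.1 CPM, and Hcrtr1 and Hcrtr2, the hypocretin receptors, at 1.40 to 3.51 and 1.85 to 3.91 CPM. Ghr, the growth hormone receptor, was at 6.98 to 12.2 CPM. These receptors were therefore detected in every library, also where the reads of their ligands were few or 0. Avpr1a, a vasopressin receptor, was low, with a median of 0.277 CPM and a highest value of 2.10 CPM in KO_OL replicate 3. Igfbp2, a binding protein of insulin-like growth factors, ranged from 19.0 to 98.3 CPM. Stat5a, a transcription factor downstream of growth hormone and prolactin receptors, ranged from 1.18 to 4.09 CPM. Both were highest in WT_RL replicate 3, which also had the highest choroid plexus sum (12915 CPM), whose part was not tested.

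Between KO_OL and KO_Basal, 3 of the 16 receptor genes rose (limma, 23.5% of all genes called) and 0 fell. Igf1r, the receptor of insulin-like growth factor 1, rose from 48.0 ± 5.69 to 74.5 ± 7.98 CPM (SD, n = 3; log2 difference 0.63, SE 0.15, limma adjusted p = 0.00626), in all 3 mice above the KO_Basal range. Mchr1 rose from 16.4 ± 0.854 to 20.9 ± 1.14 CPM (log2 difference 0.33, SE 0.10, limma adjusted p = 0.0295), with 15.7, 16.1 and 17.3 CPM in KO_Basal and 21.8, 19.6 and 21.2 CPM in KO_OL. Prlr, the prolactin receptor, which is abundant in choroid plexus, rose from 7.86 ± 5.38 to 48.3 ± 13.5 CPM (log2 difference 2.61, SE 0.81, limma adjusted p = 0.0278). The summed choroid plexus list moved with it, from 227 to 1151 CPM in KO_Basal to 3696 to 7075 CPM in KO_OL, and its part in the result was not tested. The share of receptor genes called, 3 of 16, is near the share of all genes. Between these groups 48.8% of all genes did not overlap. In the study's mapping statistics, the mapping rate was higher in every KO_OL library than in every KO_Basal library, and its part was not tested. With any 1 of the 6 libraries left out, Igf1r was called and Prlr, Mchr1 or both were not. Only Igf1r of the 16 was called without KO_Basal replicate 1 and without KO_OL replicate 3, and voom called Mchr1 and Igf1r. Between WT_OL and WT_Basal limma called 0 of the 16, with 1 at an unadjusted p under 0.05, and voom called 0.

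The RL groups were compared with the OL groups to ask what reversal learning adds to original learning. Between WT_RL and WT_OL, Avp differed by -0.57 (SE 0.29) and the other 3 genes by -0.19 to 0.10. Between KO_RL and KO_OL, Gh differed by -0.42 (SE 0.76) and the other 3 genes by -0.02 to 0.03. All 4 genes overlapped in both comparisons, while 11.1% and 13.2% of all genes did not. In limma 0.261% and 0.0196% of genes were called, and 0 genes of the 3 lists, with 3, 0 and 3 hypothalamic, pituitary and receptor genes at an unadjusted p under 0.05 in WT mice and 1, 0 and 1 in KO mice. The comparisons within a genotype share their OL libraries.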

How the data were processed

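Total RNA of mouse hippocampus was sequenced from poly(A) libraries, 1 per mouse, and GEO labels gave each library its group. The authors aligned reads to mm10 with STAR 2.5.1, counted them on genes, normalized with TMM in edgeR 3.12.1 (R 3.3.0) and deposited 1 table of log2 values. The study's methods describe CPM floored at 1, but every deposited log2 value is log2(CPM + 1) of a whole number of reads within 0.05 read (100% of values), so reads and CPM were recovered. The labels name a stranded library kit and the study's methods the TruSeq RNA kit.

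Limma 3.58.1 in R 4.3.3 was fitted to all 15329 genes with 1 mean per group over 18 libraries (eBayes with trend, 12 residual degrees of freedom, two-sided), on simulated data first. P-values measure the spread between mice. Binomial intervals (Clopper-Pearson, 95%) cover counting error only. Library pairs within a group had a chi-square per gene of 8.74 to 104 against counting noise, so none was a duplicate. Positions come from GENCODE M21 on GRCm38 and promoters from RefSeq. Python 3.11.15, numpy 2.4.6, pandas 2.3.3, scipy 1.17.1 and matplotlib 3.10.9 were used.

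The genes named are the 4 hormone genes, the 5 genes with the highest Pearson's r to each, list genes called in a comparison and, in each of 3 lists, the 4 with the widest log2 range. Other genes, such as Mchr1, Hcrtr1, Hcrtr2, Ghr, Parpbp and those given as not listed, were named for their role, and Rhoh, Parp9 and Gm5741 for their rank by rho, after their values were seen. The hormone genes and lists were chosen with earlier results of these data known. Alternatives were the floored scale, a pseudocount of 0.1, a minimum mean of 1 CPM, fits of the 2 groups alone, no trend, voom, the replicate block and each library left out.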

Additional observations from a re-analysis of the deposited data

How the results depend on the processing

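Of 255 alternative values of the differences between groups of Gh, Avp, Hcrt and Pmch, 234 moved by less than the spread between replicates, 21 moved by more, and 12 changed sign. That spread was the larger log2 SD of the groups compared, which 1 high library can widen (2.85 for Pmch in KO_Basal). A large move on leaving out such a library could thus count as small, so these counts do not show that the differences are stable. The only list with calls, the receptor genes between KO_OL and KO_Basal, kept its count of 3 in 4 alternatives (the pseudocount of 0.1, the minimum mean of 1 CPM, no trend and the replicate block) and had 2 calls on the floored scale and with voom. With only the 2 groups fitted, 1 hypothalamic gene (Lmx1a) and 5 receptor genes were called between KO_OL and KO_Basal, in place of 0 and 3. With each library left out, the calls between KO_OL and KO_Basal ranged from 1 to 2 receptor genes, with 1 (Igf1r) without KO_Basal replicate 1 and without KO_OL replicate 3. Between WT_OL and WT_Basal they ranged from 0 to 1 hypothalamic (Lhx9, without WT_OL replicate 3) and 0 to 1 pituitary genes (Prl, lower, without WT_Basal replicate 1), and between WT_RL and WT_OL from 0 to 1 hypothalamic (Lhx9) and 0 to 1 receptor genes (Igf1r), both without WT_OL replicate 3. The cause was not tested. Over all genes the count between WT_OL and WT_Basal was 1457, 74 with the 2 groups alone and 629 to 2496 with a library left out, and between WT_RL and WT_OL it was 40, 0 with the 2 groups alone and 0 to 2042 with a library left out (2042 without WT_OL replicate 3). Between KO_OL and KO_Basal it was 3600, 5289 with the 2 groups alone and 2228 to 2929 with a library left out. Between KO_Basal and WT_Basal it was 3, 5 on the floored scale, 7 with the 2 groups alone and 0 to 4 with a library left out, and between KO_RL and KO_OL it was 3, 8 on the floored scale, 0 with the 2 groups alone and 1 to 3 with a library left out.

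Replicate numbers did not pair the mice: between the groups compared, 2 of 15 correlations of same-numbered libraries were over 0.1 (range -0.42 to 0.51), and between all pairs of groups 12 of 45 were (range -0.60 to 0.51), with 0 pairs of groups over 0.1 for all 3 numbers. With the replicate block, 1377 genes were called between WT_OL and WT_Basal, 3620 between KO_OL and KO_Basal, 37 between WT_RL and WT_OL, 3 between KO_Basal and WT_Basal and 2 between KO_RL and KO_OL, and 3 receptor genes between KO_OL and KO_Basal, with 0 calls in every other list and comparison. The number of genes shared with the 5 most like Gh was 1 by Spearman's rho and 2 without its highest library. For Hcrt and for Pmch it was 0 in both, and for Avp 1 in both. Depth limits Gh and Hcrt, with 0 reads in 10 and 8 libraries.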
